A study of Mus musculus with 4 samples.

Results

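The RNA exosome is the 3′ to 5′ RNA-degrading complex of the nucleus and cytoplasm, and its subunits are encoded in the mouse by Exosc1 to Exosc10. These 10 genes were taken by name from a count table of 50559 genes, which was made from poly(A)+ RNA-seq of mouse embryonic stem cells (ESCs). The ESCs were of the E14 line, grown on gelatin with leukemia inhibitory factor, and per the study's methods carried a tdTomato reporter driven by the MERVL promoter. The siCnot1 group was transfected with an siRNA against Cnot1 and the siNT group with a non-targeting siRNA, both at 150 nM, and cells were collected 48 h after the first transfection. Each group had 2 libraries, which the study's methods describe as biological replicates. Which of the study's siRNAs against Cnot1 was used for these libraries is not stated in the sources used here. CNOT1 holds together the CCR4-NOT deadenylase, the enzyme complex that shortens the poly(A) tails of mRNAs. The comparison asks how the transcripts of the exosome stand when Cnot1 is knocked down.

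In the exosome, EXOSC1, EXOSC2 and EXOSC3 form a cap that binds incoming RNA. EXOSC4 to EXOSC9 form a barrel below it, in which EXOSC4 pairs with EXOSC9, EXOSC5 with EXOSC8 and EXOSC7 with EXOSC6. The mammalian barrel has no activity of its own: RNA is cut by EXOSC10, a nuclease mainly of the nucleus, and by DIS3 or DIS3L at the other end of the barrel. Once deadenylation has removed a poly(A) tail, an mRNA can be degraded from its 3′ end by the cytoplasmic exosome with the SKI complex, or decapped and degraded from its 5′ end by XRN1.

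Of the 10 subunit genes, 9 had enough counts to be tested, and 4 of these fell in siCnot1: Exosc5, Exosc2, Exosc8 and Exosc10. Of all 18144 tested genes, 14.7% were called lower, and 19.2% of those of like level. Exosc5 fell most, by 26.2% (95% interval of the change -33.0% to -18.7%). The other 3 fell by between 15.7% and 17.7%. None of the 9 was called higher, in edgeR or in any of the alternative fits, DESeq2 and limma-voom included. The number called lower was 1 when library totals replaced TMM scaling, beside 8.61% of all tested genes. It was 2 without the filter on low counts, beside 1450 of the 30308 genes tested in that fit. When 1 library was left out, the members' median log2 fold change lay between -0.23 and -0.15. Exosc5 was called in each of 12 alternative fits, and the other 3 in 7 of 12 each. Exosc6 had 0 counts in every library, and its exon lies almost wholly within an exon of the gene Aars, so its level was taken as not measured.

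The start-site sequences of the 4 genes that fell and of Exosc1, the member nearest to no change, are shown so that their layouts can be compared. They are RefSeq sequences on GRCm38.p6, joined to the counts by symbol, each from 250 bases before the transcription start to 20 bases after it. The windows of Exosc8 and Exosc1 were shortened to 174 and 47 bases before the start. The cut follows the distance to a gene on the other strand in the deposited gene positions, and was not checked on GRCm38.p6. Exosc5 is at chr7:25658903-25659172 on the plus strand, and Exosc10 at chr4:148558169-148558438 on the plus strand, the first of its 2 listed starts. Exosc2 is at chr2:31670465-31670734 on the plus strand, Exosc8 at chr3:54735345-54735538 on the minus strand and Exosc1 at chr19:41933295-41933361 on the minus strand. Each is printed 5′ to 3′ along its gene, and capitals mark matches on either strand to the motif letters given after the sequences.
Exosc5: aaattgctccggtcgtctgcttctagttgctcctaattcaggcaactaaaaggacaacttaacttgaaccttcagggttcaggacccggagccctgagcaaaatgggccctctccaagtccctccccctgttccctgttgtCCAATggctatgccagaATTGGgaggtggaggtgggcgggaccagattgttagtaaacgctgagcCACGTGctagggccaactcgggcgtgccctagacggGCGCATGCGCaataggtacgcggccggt
Exosc10: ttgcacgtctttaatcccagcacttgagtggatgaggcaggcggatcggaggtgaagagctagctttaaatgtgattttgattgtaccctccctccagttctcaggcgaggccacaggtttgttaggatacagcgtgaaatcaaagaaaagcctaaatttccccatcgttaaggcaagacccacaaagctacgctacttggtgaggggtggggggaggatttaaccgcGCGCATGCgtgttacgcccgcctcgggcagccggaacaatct
Exosc2: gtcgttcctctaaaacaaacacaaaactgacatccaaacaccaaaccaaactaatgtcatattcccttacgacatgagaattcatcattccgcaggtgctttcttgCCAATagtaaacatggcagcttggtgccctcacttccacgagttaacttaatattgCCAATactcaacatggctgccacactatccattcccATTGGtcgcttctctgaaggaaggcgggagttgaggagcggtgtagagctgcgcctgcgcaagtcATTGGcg
Exosc8: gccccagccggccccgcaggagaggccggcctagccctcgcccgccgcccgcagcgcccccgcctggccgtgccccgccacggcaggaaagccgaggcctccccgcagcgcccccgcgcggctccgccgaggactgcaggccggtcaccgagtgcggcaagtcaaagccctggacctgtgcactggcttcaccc
Exosc1: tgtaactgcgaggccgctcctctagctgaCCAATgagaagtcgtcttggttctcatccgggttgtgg

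The motifs searched, on both strands, were those of NRF1 (GCATGCGC), ETS factors (CCGGAAG), YY1 (AAGATGGC), the CCAAT box (CCAAT), the E-box (CACGTG) and the TATA box (TATAAA). Exosc5 held the NRF1 letters on both strands in 1 run of overlapping bases, from base -8 to base 1 relative to the start, an E-box from base -44 to base -39 and 2 CCAAT boxes. Exosc10 also held the NRF1 letters, from base -22 to base -15, at the printed start. Its other listed start, at chr4:148558463-148558732, held no NRF1 letters. It held the ETS letters from base -64 to base -58 and from base -1 to base 5. Exosc2 held 4 CCAAT boxes, and Exosc8 held none of the 6 motifs in its full window. Of 32851 RefSeq promoters of the same length, 2.51% held the NRF1 letters, 8.08% ETS, 1.92% YY1, 35.4% CCAAT, 6.57% the E-box and 12.9% the TATA box. Among the 8 members in the table, the respective numbers were 2, 2, 0, 3, 1 and 0. Exosc10 was counted for a motif at either of its starts, whereas the shares are per promoter. No motif was common to the 4 genes that fell. The CCAAT box was also held by Exosc1, which was not called, from base -18 to base -14 of the printed window. The full window of Exosc1 held further CCAAT letters, on both strands, from base -61 to base -54. The GC content of the windows printed ran from 47.0% in Exosc2 to 78.4% in Exosc8, whose window was shortened. Over full windows of 270 bases Exosc8 was at 77.0%, Exosc1 at 65.9% and the median promoter at 52.6%.

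Depth was similar in the 4 libraries, which held between 32135824 and 32557440 counts on genes, and 18144 genes passed the filter on low counts. Cnot1 itself was at 913 and 986 normalized CPM (counts scaled to library size, here with TMM factors) in siNT and at 185 and 192 in siCnot1, 19.8% of the control level (log2 fold change -2.33, standard error, SE, 0.0587). The labelled cell type was seen in the pluripotency markers, which summed to 4364 to 4470 normalized CPM in siNT and 3760 to 3984 in siCnot1. Of these 6 markers, 4 were called lower (Pou5f1, Sox2, Nanog and Esrrb), beside 14.7% of all tested genes. Their log2 fold changes ran from -0.24 to -0.17. Of 9 markers of the 2-cell-like (2C-like) state, 7 were called higher, beside 15.0% of all tested genes. The sum of the 9 was 76.1 to 76.5 in siNT and 196 to 203 in siCnot1. Marker calls are given for TMM scaling only. Markers of other lineages were low: fibroblast markers summed to at most 4.24 normalized CPM with Dcn at 0 in every library, primitive endoderm markers to at most 14.6 and trophectoderm markers to at most 41.0. Of these 3 lists, Col1a1 and Pdgfra were called higher and Krt8 and Krt18 lower. Whether the altered mix of cell states contributes to the exosome values was not tested, and in bulk RNA fewer cells of a type and less RNA per cell cannot be told apart.

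The cap is described first. Exosc2, an RNA-binding cap subunit, was at 83.8 and 73.3 normalized CPM in siNT and at 64.0 and 65.3 in siCnot1. Both siCnot1 libraries lay below both siNT libraries, and the siNT libraries differed from each other more than the siCnot1 ones did. The mean went from 78.6 ± 7.41 (SD, n = 2) to 64.7 ± 0.913 (SD, n = 2), a log2 fold change of -0.28 (SE 0.0756, 95% interval -0.44 to -0.12, adjusted p = 0.0065 in the quasi-likelihood test of edgeR). Exosc1 was at 41.7 and 42.2 in siNT and at 40.9 and 41.2 in siCnot1. Its groups did not overlap either, but the distance was small, with a log2 fold change of -0.03 (95% interval -0.21 to 0.15, adjusted p = 0.833). Exosc3, the subunit whose human counterpart is mutated in a form of pontocerebellar hypoplasia, was at 46.4 and 42.6 in siNT and at 40.9 and 43.4 in siCnot1. Its groups overlapped, and its log2 fold change was -0.08 (95% interval -0.26 to 0.10, adjusted p = 0.558). Of the 3 cap genes, 1 was thus called lower, beside 14.7% of all tested genes and 19.2% of those of like level.

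**Figure D1:**
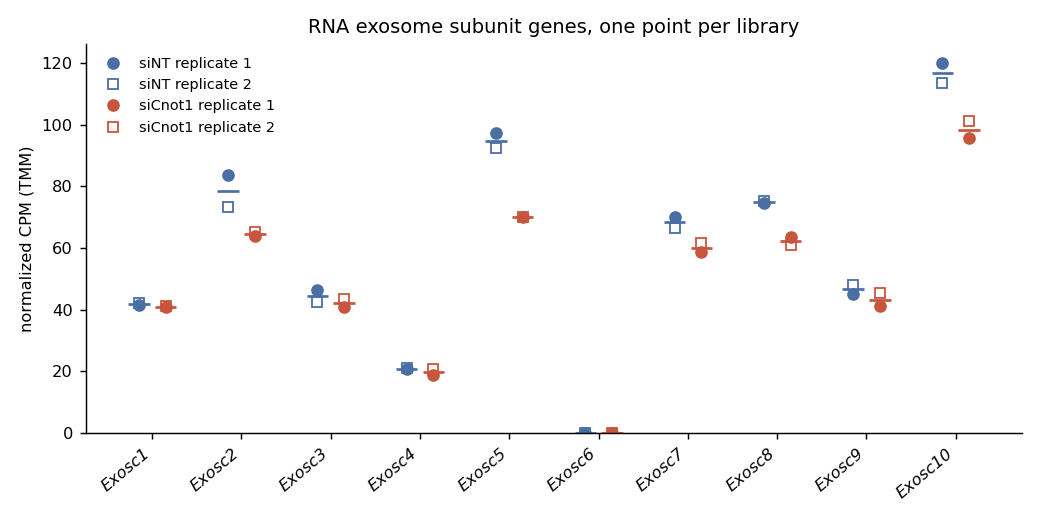
Normalized CPM (vertical axis) of the 10 exosome subunit genes (horizontal axis) in each of the 4 libraries. Points are single libraries, siNT in blue and siCnot1 in red, and short bars are group means. Exosc5 shows the widest separation, from 97.2 and 92.4 in siNT to 69.9 and 70.0 in siCnot1, and Exosc6 lies at 0 in every library.

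The barrel held the gene with the largest change of the 9, Exosc5. It was at 97.2 and 92.4 normalized CPM in siNT and at 69.9 and 70.0 in siCnot1. The siCnot1 libraries were nearly equal and lay well below both siNT libraries. Its mean went from 94.8 ± 3.38 (SD, n = 2) to 69.9 ± 0.0293 (SD, n = 2), a log2 fold change of -0.44 (SE 0.0676, 95% interval -0.58 to -0.30, adjusted p = 2.8e-05). Exosc8, whose product sits beside that of Exosc5 in the barrel, was at 74.7 and 75.1 in siNT and at 63.5 and 60.9 in siCnot1. Its groups were apart as well, with a log2 fold change of -0.27 (SE 0.0716, 95% interval -0.42 to -0.12, adjusted p = 0.0061). Exosc7 was at 70.1 and 66.6 in siNT and at 58.7 and 61.5 in siCnot1. The groups of Exosc7 did not overlap, yet it missed the threshold (log2 fold change -0.19, 95% interval -0.34 to -0.03, adjusted p = 0.0643).

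The remaining measured barrel pair, Exosc4 and Exosc9, showed overlapping groups in both genes. Exosc4 had the lowest counts of the 9 genes, between 637 and 697 per library, and was at 20.7 and 21.2 normalized CPM in siNT and at 19.0 and 20.8 in siCnot1. Exosc9 was at 45.1 and 48.1 in siNT and at 41.3 and 45.3 in siCnot1. The log2 fold changes were -0.07 for Exosc4 (95% interval -0.29 to 0.15, adjusted p = 0.676) and -0.11 for Exosc9 (95% interval -0.29 to 0.08, adjusted p = 0.403). Changes of the size seen in Exosc8 lay inside both intervals, so such a change was not excluded at this depth.

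Exosc10, the nuclease subunit, was at 120 and 113 normalized CPM in siNT and at 95.7 and 101 in siCnot1. Both siCnot1 libraries lay below both siNT libraries. The mean went from 117 ± 4.79 (SD, n = 2) to 98.3 ± 3.79 (SD, n = 2), a log2 fold change of -0.25 (SE 0.0642, 95% interval -0.38 to -0.11, adjusted p = 0.0050).

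The members' counts are read against all tested genes. At an adjusted p under 0.05, 4 of 9 measured subunit genes were called lower and 0 higher, whereas of all 18144 tested genes 14.7% were called lower and 15.0% higher. Among the 5343 tested genes whose mean level lay within the range of the 9 subunit genes, 19.2% were called lower and 15.7% higher. The study called genes that changed at least 2-fold (1 on the log2 scale) with an unadjusted p no higher than 0.05. No subunit gene met that threshold, which 1.8% of tested genes passed downwards and 6.18% upwards. The groups did not overlap, with siCnot1 lower, in 6 of the 9 genes and in 31.2% of all tested genes. The median log2 fold change was -0.19 over the 9 genes and 0.0084 over all tested genes, and -0.02 over the 5343 genes of like level. The 4 genes called were those with the highest mean levels of the 9.

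The sign of the smaller changes depended on the scaling. The siCnot1 libraries had larger TMM factors (1.04 and 1.03) than the siNT libraries (0.964 and 0.963), and scaling by library totals alone moved the median of all tested genes to 0.12. Under library totals Exosc5 remained called (log2 fold change -0.33, adjusted p = 0.0006), beside 8.61% of all tested genes called lower. Exosc2, Exosc8 and Exosc10 were then at -0.17, -0.16 and -0.14 and were not called, and Exosc1, Exosc3, Exosc4 and Exosc9 were above 0. A change of scaling shifts all genes by about the same amount, so the distance of the members' median from the all-gene median, -0.19, is the same under each scaling by construction. When 1 library was left out, Exosc5 was called each time, joined by Exosc2 without siNT replicate 2 and by Exosc10 without siCnot1 replicate 2.

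**Figure D2:**
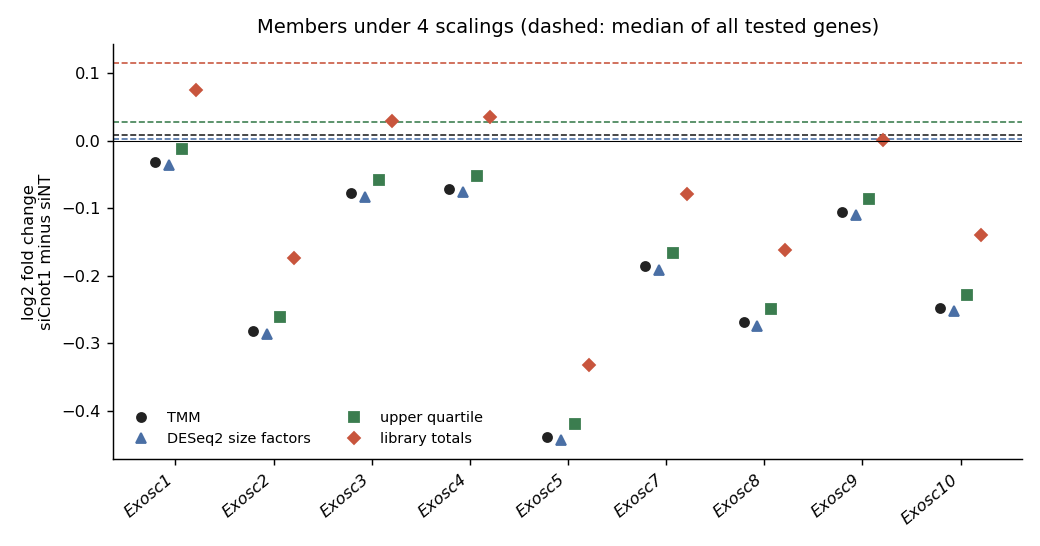
Log2 fold change, siCnot1 minus siNT (vertical axis), of the 9 measured subunit genes (horizontal axis) scaled by TMM, by the size factors of DESeq2, by the upper quartile or by library totals. Dashed lines mark the median of all tested genes under each scaling in the same colour. Under library totals the points and the dashed line are shifted together by construction, and the points of Exosc1, Exosc3, Exosc4 and Exosc9 then lie above 0.

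Shares of the subunit counts within a library need no scaling between libraries. Exosc5, taken here because it changed most, held 16.2% (95% Wilson interval 15.7% to 16.7%) and 16.1% (15.5% to 16.6%) of the counts on the subunit genes in siNT. In siCnot1 it held 14.2% (13.6% to 14.7%) and 13.7% (13.2% to 14.3%), below both siNT libraries. These shares restate its larger fall as a description, and the intervals cover counting error only. Summed over the subunit genes, the level was 600 and 575 normalized CPM in siNT and 494 and 509 in siCnot1.

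Levels of different subunits can be compared only per length. In siNT, per kilobase of listed exon, Exosc5 was highest at 85.4 ± 3.04 normalized CPM per kilobase (SD, n = 2), followed by Exosc8 at 58.4 ± 0.185, Exosc3 at 41.8 ± 2.52 and Exosc2 at 40.7 ± 3.84. Then came Exosc9 at 28.8 ± 1.33, Exosc10 at 27.3 ± 1.12, Exosc1 at 23.9 ± 0.196, Exosc4 at 11.7 ± 0.178 and Exosc7 at 9.49 ± 0.339. The libraries of Exosc3 and Exosc2 overlapped, as did those of Exosc9 and Exosc10, and the other neighbours in this order did not. The highest level was 9.0 times the lowest. The place of Exosc7 rests on its listed length of 7205 bases: with the 1053 bases of its GENCODE M21 mRNA it came first, at 64.9 ± 2.32. The counts were those over the listed exons for every length, so a level by a shorter length can be too high. With M21 lengths the highest level was 5.57 times the lowest. Exosc5 and Exosc8 were among the first 3, and Exosc4 was the eighth or ninth, under each of the lengths tried. In siCnot1, Exosc5 was still highest per listed length, at 63.0 ± 0.0264.

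**Figure D3:**
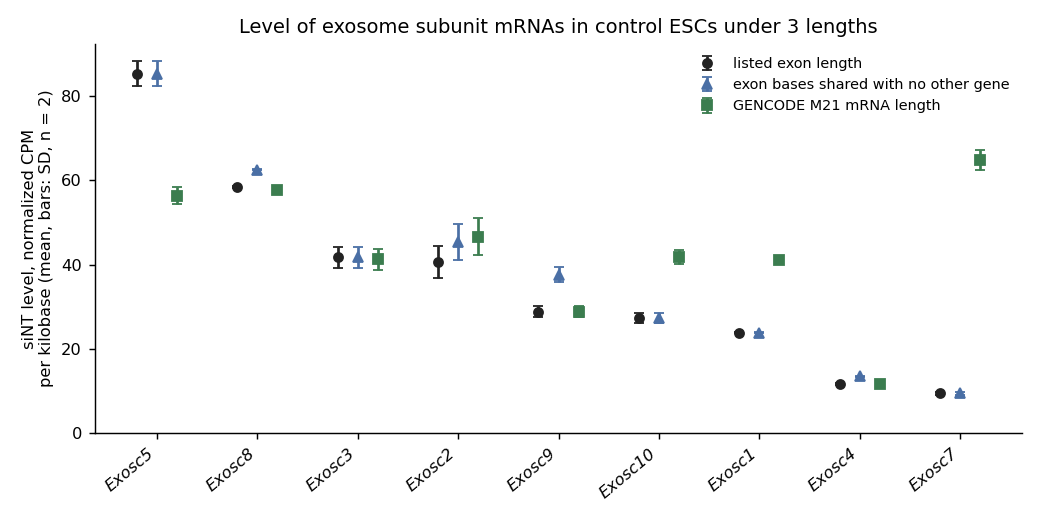
Level of the 9 measured subunit mRNAs in siNT, as normalized CPM per kilobase (vertical axis, mean with SD of 2 libraries), for 3 definitions of length, with genes ordered by the listed exon length. Exosc5 and Exosc8 lie high with each length, and Exosc7 moves from 9.49 to 64.9 when its M21 mRNA length is used. The counts are those over the listed exons for every length.

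Exosc6, a barrel subunit that pairs with EXOSC7, is a gene of 1 exon. In the deposited table it lies on chromosome 8 from 111782971 to 111784296 on the plus strand, and 1267 of its 1326 exon bases (95.6%) are shared with exons of Aars on the same strand. Aars encodes alanyl-tRNA synthetase, had 18318 and 17955 counts in siNT and 18074 and 18744 in siCnot1, and was not called (log2 fold change -0.08, adjusted p = 0.292). In GENCODE M21, 1 of 7 Aars transcripts, Aars-201, covers the whole of Exosc6. Counts of 0 were frequent among such genes across the table, and why was not tested. Of protein-coding genes with at least 90% of their exon bases shared with another gene on the same strand, 62 of 73 (84.9%) were at 0 in all libraries. With such overlap on the opposite strand it was 36 of 37 (97.3%), and with no overlap 3593 of 16231 (22.1%). The 0 counts of Exosc6 were therefore not read as a level of its transcript. Parts of 4 other members are shared with a gene on the opposite strand: 23.4% of the exon bases of Exosc9 (Ccna2), 13.2% of Exosc4 (Oplah), 10.6% of Exosc2 (Gm13427) and 6.63% of Exosc8 (Supt20). The order of levels was also computed without those bases, and there Exosc2 came before Exosc3.

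In 4 of the 10 subunit genes, a gene on the opposite strand starts within 1000 bases, against 12.8% of all genes listed and 21.9% of those tested. Exosc5 and Bckdha, which encodes a subunit of the branched-chain ketoacid dehydrogenase, have their 5′ ends 369 bases apart. Bckdha was at 80.1 and 71.9 normalized CPM in siNT and at 55.4 and 54.6 in siCnot1, with a log2 fold change of -0.47 (SE 0.0762, adjusted p = 5.7e-05). The groups of Bckdha did not overlap, and both genes of this pair were called lower. In the other 3 pairs the neighbour was not called. Zdhhc16 starts 48 bases from Exosc1 and had a log2 fold change of 0.12 (adjusted p = 0.386), and Zdhhc3, which starts 27 bases from Exosc7, one of 0.13 (adjusted p = 0.158). Both encode palmitoyltransferases. Alg5, which encodes a dolichyl-phosphate glucosyltransferase, starts 175 bases from Exosc8, and its log2 fold change was 0.06 (95% interval -0.19 to 0.30). Over 1409 tested pairs in the table, the neighbour was called lower for 98 of 486 genes called lower (20.2%), and 17.2% of all tested neighbours were called lower. The difference between the genes of a pair was not tested.

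**Figure D4:**
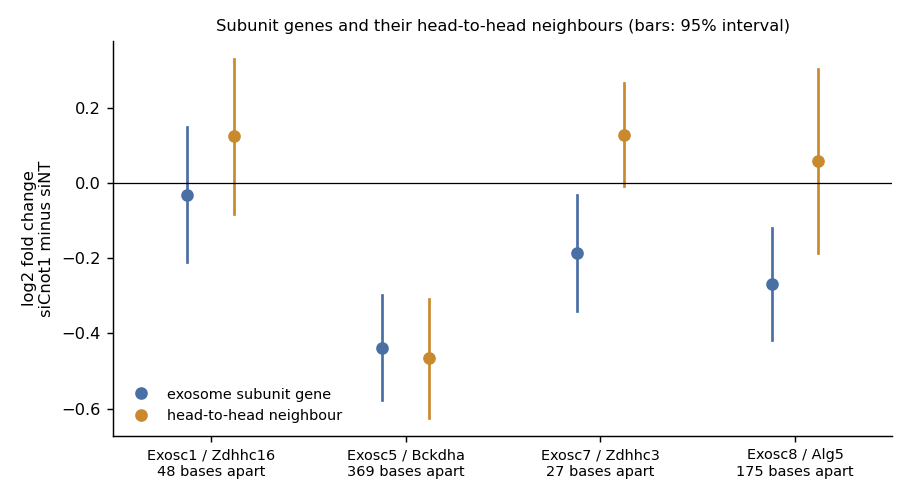
Log2 fold change, siCnot1 minus siNT (vertical axis, bars are 95% intervals), of 4 exosome subunit genes (blue) and the genes that start head to head with them (orange), with the distance between their 5′ ends. Exosc5 and Bckdha lie together at -0.44 and -0.47, whereas Alg5 lies at 0.06 beside Exosc8 at -0.27.

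The genes around the exosome were described from 6 lists of 35 genes, all of which were tested. Of these, 16 were called lower and 0 higher by edgeR with TMM scaling, beside 14.7% and 15.0% of all tested genes. The median log2 fold change was -0.17. Shares of all tested genes take in every level of expression, and a share at the levels of the partner genes was not computed. With library totals 8 were called lower and 4 higher, beside 1563 and 3999 of all 18144 tested genes. Without the filter on low counts 8 were called lower, beside 1450 of the 30308 genes tested in that fit. Partner genes called higher numbered 2 with upper-quartile scaling, beside 2918 of all 18144 tested genes. They numbered 2 with at least 1 CPM in 2 libraries, beside 2802 of the 14767 genes tested in that fit. With limma-voom 1 was called higher and with DESeq2 0, where 49.9% and 47.3% of all calls were higher. On the higher side, Dis3l2 and Zfc3h1 had an unadjusted p under 0.05. Among the nucleases, Dis3, the processive nuclease bound to the exosome in the nucleus, was at 161 and 168 normalized CPM in siNT and at 125 and 123 in siCnot1 (log2 fold change -0.41, SE 0.0598, adjusted p = 1.5e-05). Dis3l, its cytoplasmic counterpart, was at 25.8 and 27.3 in siNT and at 28.7 and 29.0 in siCnot1, with a log2 fold change of 0.12 (95% interval -0.08 to 0.32, adjusted p = 0.394). Dis3l2, which acts on uridylated RNAs without the exosome, was at 25.5 and 28.7 in siNT and at 32.1 and 32.4 in siCnot1. Its groups did not overlap, with a log2 fold change of 0.25 (95% interval 0.05 to 0.46, adjusted p = 0.058). There were 6.25 and 6.15 counts on Dis3 for each on Dis3l in siNT, and 4.33 and 4.25 in siCnot1.

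Of 12 cofactors of the nuclear exosome, 4 were called lower, beside 14.7% of all tested genes. Mtrex, the helicase that feeds RNA into the nuclear exosome, was at 213 and 209 normalized CPM in siNT and at 153 and 155 in siCnot1, with a log2 fold change of -0.45 (SE 0.0572, adjusted p = 2.2e-06). Nop53, which links Mtrex to ribosomal RNA precursors, fell by 0.32 on the log2 scale, Rbm7 of the NEXT complex by 0.28 and C1d, the partner of EXOSC10, by 0.22. Over the 12 alternative fits Nop53 was called in 10, Rbm7 in 6 and C1d, which passed narrowly (adjusted p = 0.0474), in 3. The others were not called, including the poly(A) polymerases Tent4a and Tent4b (0.02 and 0.05), Zcchc8 of NEXT (0.12) and Zfc3h1 of the PAXT connection (0.17). The difference between Rbm7 and Zcchc8, both of NEXT, was not tested. Of the 4 genes that tie the cap-binding complex to the nuclear exosome, Ncbp1 (-0.34) and Srrt (-0.17) were called lower. Ncbp2 (-0.15) and Zc3h18 (-0.04) were not, and the share of all tested genes called lower was again 14.7%. Srrt was called in 6 of the 12 alternative fits.

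On the cytoplasmic side, the 3 genes of the SKI complex gave -0.03 for the helicase Skiv2l, 0.10 for Ttc37 and -0.20 for Wdr61, of which only Wdr61 was called (adjusted p = 0.0227). WDR61 is also a subunit of the PAF1 complex in transcription. Of the ribosome-rescue genes of the same list, Pelo was called lower (-0.31) and Hbs1l was not (0.03). The list thus held 2 of 5 genes called lower, beside 14.7% of all tested genes. Wdr61 was called in 6 and Pelo in 7 of the 12 alternative fits. Among 4 RNA-binding proteins that recruit the exosome to mRNAs, 3 were called lower, against 14.7% of all tested genes. Zfp36, which binds AU-rich elements and also recruits CCR4-NOT, was at 16.3 and 15.9 normalized CPM in siNT and at 8.78 and 8.40 in siCnot1, the largest change of the 35 genes (log2 fold change -0.90, SE 0.131, adjusted p = 1.4e-05). Zc3hav1, the zinc-finger antiviral protein, was at 66.5 and 71.7 in siNT and at 42.9 and 43.1 in siCnot1 (log2 fold change -0.68). Khsrp was called at -0.20, and in 7 of the 12 alternative fits, and Dhx36 was not (-0.12).

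The opposite, 5′ to 3′ pathway also held genes called lower, 4 of 7, again beside 14.7% of all tested genes. The decapping enzyme gene Dcp2 was at 307 and 326 normalized CPM in siNT and at 228 and 237 in siCnot1, with a log2 fold change of -0.45 (SE 0.0571, adjusted p = 2.7e-06). Xrn2, the nuclear 5′ to 3′ nuclease, had a log2 fold change of -0.38, the decapping activators Dcp1a and Edc3 had -0.25 and -0.21, and all 3 were called. Dcp1a was called in 6 and Edc3 in 4 of the 12 alternative fits. The cytoplasmic nuclease gene Xrn1 was at 84.0 and 95.5 in siNT and at 87.7 and 89.7 in siCnot1. Its groups overlapped, and its log2 fold change was -0.02 (95% interval -0.16 to 0.13). Lower calls were therefore found for genes of both decay directions, and whether the lists differ in this was not tested. Dis3, Mtrex, Ncbp1, Zfp36, Zc3hav1, Dcp2 and Xrn2 were called lower in all 12 alternative fits. When 1 library was left out, fewer genes of the partner lists were called lower than with all libraries, and so were fewer of all tested genes.

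**Figure D5:**
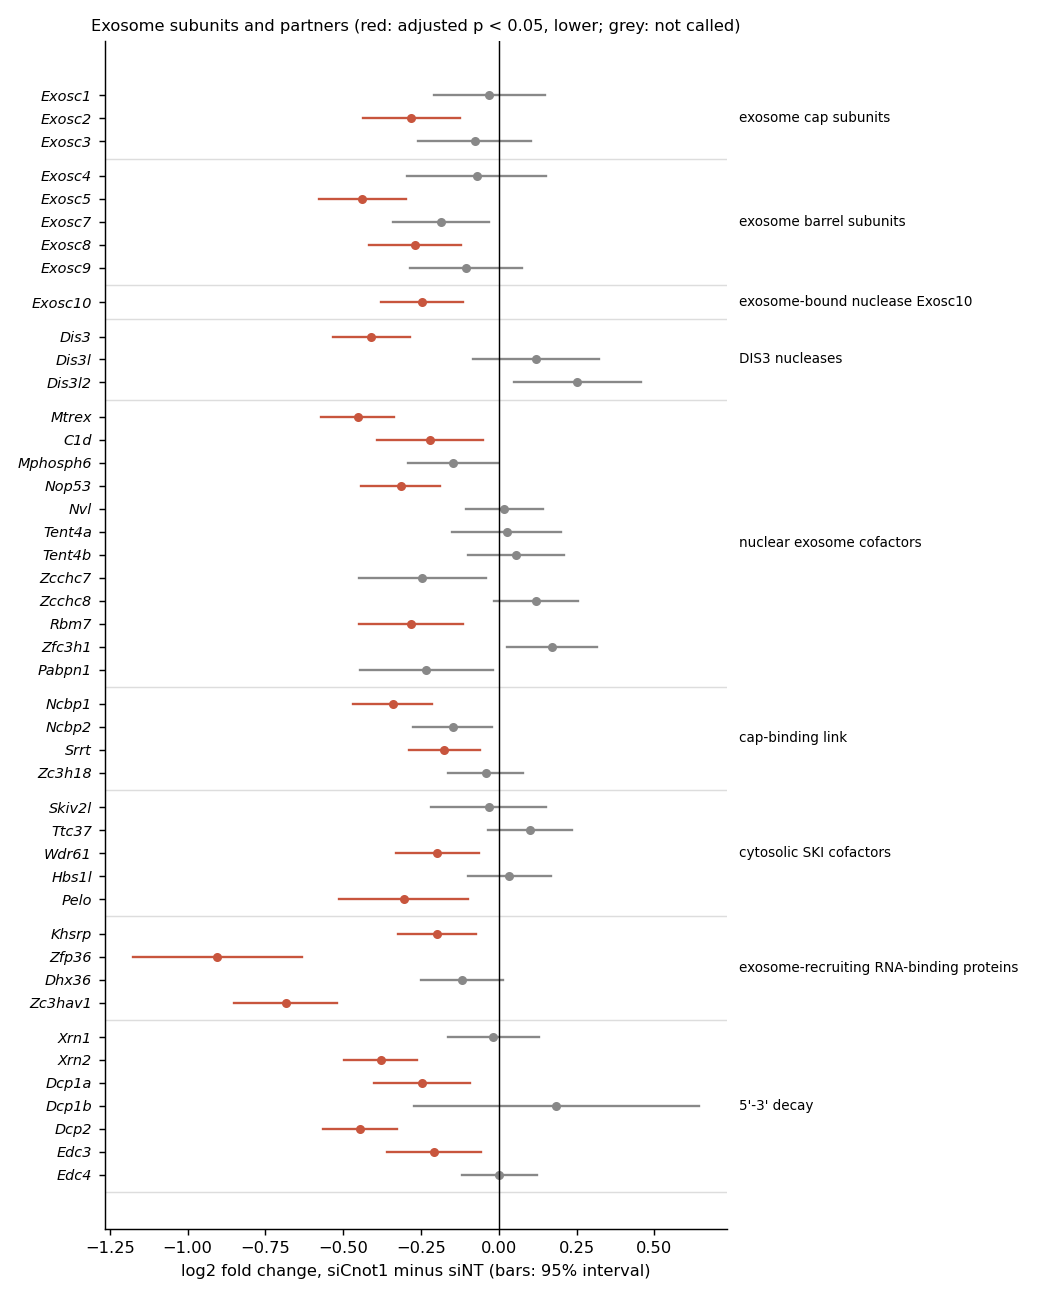
Log2 fold change, siCnot1 minus siNT (horizontal axis), with its 95% interval, for the 9 measured exosome subunit genes and the 35 genes of the partner lists, grouped by role. Red marks genes called lower at an adjusted p under 0.05 and grey marks genes not called; no gene was called higher. Dis3 and Mtrex lie at -0.41 and -0.45, near Exosc5 at -0.44, whereas Dis3l and Dis3l2 lie above 0.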

How the data were processed

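Poly(A)+ RNA of 2 siNT and 2 siCnot1 ESC libraries was sequenced by the study with 150-base paired reads. The authors deposited raw counts per gene, not normalized or pooled, with gene positions and exon lengths. The submitters' processing notes name fastp 0.19.4, HISAT2 2.2.1, DESeq2 1.40.2 and mm10, without roles. The counting program and its strand setting are not given in the sources used here. Positions are not those of mm10, since only 2.24% of 48775 genes matched by symbol start at the same base in the GRCm38 annotation, and scaffold names are those of GRCm39. RefSeq promoters (GRCm38.p6) and GENCODE M21 lengths were therefore joined by symbol only. All per-sample columns were used.

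Counts were scaled by TMM, filtered with filterByExpr (minimum count 10) and tested with edgeR 4.0.16 (quasi-likelihood test, condition as the only term, Benjamini-Hochberg adjustment over 18144 genes) in R 4.3.3. A gene was called at an adjusted p under 0.05. Standard errors were obtained by dividing each log2 fold change by the root of its F statistic, and 95% intervals use the test's t quantiles. At this depth 3 counts equal 0.0921 to 0.0934 CPM. The biological coefficient of variation was 0.0721. The fit was checked on simulated counts. Named genes are the 10 members, Cnot1, the genes of the partner lists, and genes that overlap the members or start within 1000 bases head to head. The members and lists were chosen with earlier results of these data known.

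Alternatives were scaling by DESeq2's size factors, by the upper quartile or by library totals, no filter on low counts, a minimum of 1 CPM in 2 libraries, the tools DESeq2 1.42.0 and limma-voom (limma 3.58.1), the replicate number as a block, and leaving out each library. For levels per length, exon bases shared with no other gene and M21 mRNA lengths were added as alternatives after seeing the data.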

Additional observations from a re-analysis of the deposited data

How the results depend on the processing

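Over 12 alternatives, Cnot1, Exosc5 and Bckdha kept their direction and their call. With library totals 1 subunit gene (Exosc5), 8 partner genes lower and 4 higher were called, the members' median was -0.0786, and Exosc1 (0.0760), Exosc3 (0.0295), Exosc4 (0.0359), Exosc9 (0.0015), Zc3h18 (0.0656), Skiv2l (0.0756) and Xrn1 (0.0898) turned positive. Of all genes, 1563 were then called lower, against 2668 with TMM, and 71.9% of all calls were higher, against 50.5%. Without the filter on low counts, 2 subunit genes (Exosc5 and Exosc8) and 8 partner genes were called lower, and of all genes 1450 were called lower and 1303 higher, against 2668 and 2719. With upper-quartile scaling 2 partner genes were called higher, beside 2918 of all 18144 tested genes. With at least 1 CPM in 2 libraries it was also 2, beside 2802 of 14767. With limma-voom it was 1, where 49.9% of all calls were higher. Xrn1 was at 0.0022 with upper-quartile scaling, and Edc4 at -0.0029 with DESeq2 size factors in edgeR and with DESeq2, and at -0.0043 without the filter.

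Leaving out 1 library leaves 1 in its group, assumed to vary like the others. Then 1 to 2 subunit genes and 7 to 10 partner genes were called lower: only Exosc5 without siNT replicate 1 or without siCnot1 replicate 1, Exosc2 and Exosc5 without siNT replicate 2, and Exosc5 and Exosc10 without siCnot1 replicate 2. All-gene calls were then 743 to 1439 higher and 871 to 1463 lower. Genes near 0 changed sign over these fits: Tent4a (-0.0428 to 0.0808), Tent4b (-0.0305 to 0.14), Zc3h18 (-0.0930 to 0.0051), Alg5 (-0.0520 to 0.15), Xrn1 (-0.11 to 0.0769), Dcp1b (-0.11 to 0.42), Edc4 (-0.0390 to 0.0377), Nvl (-0.0016 to 0.0277) and Hbs1l (-0.0047 to 0.0632).

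With the replicate number as a block, Exosc2, Exosc5, Exosc8 and Exosc10 were again called lower, and so were 14 partner genes. The members' median was -0.19, beside 0.0086 over all tested genes, and 50.9% of all calls in that fit were higher. Same-numbered libraries share only a number, and their deviations from the group means correlated at 0.011. Lengths coded by RefSeq proteins were not run. The 95% intervals of Exosc4 and Exosc9 take in both 0 and a change of the size seen in Exosc8.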

Other observations

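Counts of 0 in overlapped genes, as seen for Exosc6, were more frequent when genes of every type were counted. Of 957 genes with at least 90% of their exon bases on exons of another gene of the same strand, 940 (98.2%) were at 0 in all 4 libraries. On the opposite strand it was 422 of 428 (98.6%), and for genes with no overlap 17243 of 39872 (43.2%). The libraries were made with dUTP, which keeps the strand, and opposite-strand overlaps were listed at 0 about as often as those of the same strand. A value of 0 for such a gene was not taken as a measurement of its transcript.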
